A study of Homo sapiens with 9 samples.

Results

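Interferon-stimulated genes are the genes that a cell switches on when it senses interferon, and the 48 described here are its effectors: proteins that block viral entry, attack viral RNA, tag proteins with ISG15 or ADP-ribose, build nuclear bodies or recruit immune cells. They were taken by symbol from 58381 Ensembl gene entries measured by RNA sequencing, without the IFIT, OAS, STAT, IRF, sensor and HLA genes. All 48 were found, and 44 of them reached 1 FPKM (fragments scaled to transcript length and to the mapped fragments of the library, the unit of the deposited values) in at least 3 libraries and were tested. CXCL10, CXCL11, RTP4 and XAF1 did not reach that level.

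The cells were HK1, a line from a human nasopharyngeal carcinoma, and the study asked what knockdown of 2 E2F transcription factors does to its transcripts. The si-E2F1 group received an siRNA against E2F1, the si-E2F3 group an siRNA against E2F3 and the Control group a non-targeting siRNA, each at 100 nM for 48 h in medium with serum, with 3 libraries a group. All 3 groups were therefore transfected with a short double-stranded RNA, the labels mention no interferon treatment, and untransfected cells were not analysed here. The labels give neither the siRNA sequences nor the number of siRNAs per target. Nor do they state if each library had its own culture, so the tests rest on library-to-library spread that may be technical.

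Type I and type III interferons bind receptors that activate the kinases JAK1 and TYK2. These phosphorylate STAT2, which joins IRF9 in the complex ISGF3. ISGF3 enters the nucleus and binds the interferon-stimulated response element in the promoters of its target genes, so one signal can raise many effectors together. Many effectors are also kept at a low, steady level by weak tonic signalling or by IRF proteins without added interferon.

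Promoter windows of 300 bases, from 250 before to 50 after the transcription start (RefSeq, GRCh38.p14), were found for 40 of the 48 members. USP18, PARP10, MX2, GBP2, IFITM2, TRIM22, PML and APOL1 were not matched. The core of the response element, GAAA, any 2 bases, then GAAA, on either strand, was present in 27 of the 40 (67.5%), against 272 of 9777 promoters of tested genes (2.78%) and 996 of all 27305 promoters (3.65%). Overlapping matches were allowed. The E2F sites TTTCCCGC or TTTGGCGC, on either strand, were present in 2 of the 40 (5%), those of PARP12 and RSAD2, against 3.79% of the promoters of tested genes. The stretches below, 5′ to 3′ on the gene's own strand, show the core in capitals in 3 genes with large changes (ISG15, HERC5, ISG20), in 2 genes beside their nearest relative (DDX60 with DDX60L, IFI44 with IFI44L), in DTX3L and in BST2. Cores on the opposite strand read TTTC, any 2 bases, then TTTC, as in HERC5 and IFI44.
ISG15, chr1:1013359-1013424, plus strand: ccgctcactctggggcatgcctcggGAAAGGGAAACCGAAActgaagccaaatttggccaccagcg
HERC5, chr4:88456969-88457079, plus strand: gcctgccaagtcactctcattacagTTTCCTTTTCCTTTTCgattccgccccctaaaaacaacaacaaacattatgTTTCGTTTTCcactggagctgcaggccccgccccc
ISG20, chr15:88638922-88638981, plus strand: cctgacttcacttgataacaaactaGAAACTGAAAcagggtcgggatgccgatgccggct
DDX60, chr4:168318771-168318865, minus strand: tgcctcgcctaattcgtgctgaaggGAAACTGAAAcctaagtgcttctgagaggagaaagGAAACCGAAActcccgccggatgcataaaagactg
DDX60L, chr4:168480508-168480597, minus strand: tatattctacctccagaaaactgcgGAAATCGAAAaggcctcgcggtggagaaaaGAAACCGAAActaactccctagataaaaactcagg
IFI44, chr1:78649746-78649805, plus strand: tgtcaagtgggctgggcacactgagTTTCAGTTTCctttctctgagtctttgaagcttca
IFI44L, chr1:78620259-78620409, plus strand: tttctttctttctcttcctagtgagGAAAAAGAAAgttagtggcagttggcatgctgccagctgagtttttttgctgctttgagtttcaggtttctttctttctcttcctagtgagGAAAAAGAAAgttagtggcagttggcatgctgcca
DTX3L, chr3:122564307-122564366, plus strand: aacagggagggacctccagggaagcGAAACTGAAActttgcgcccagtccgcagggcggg
BST2, chr19:17405720-17405785, minus strand: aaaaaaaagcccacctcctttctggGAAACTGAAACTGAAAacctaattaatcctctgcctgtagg

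Only promoters with a core are shown. The windows of RSAD2 and CMPK2, which fell after si-E2F3, held none. HERC5 holds 3 cores, ISG15 and BST2 each hold 2 that overlap, DDX60 and DDX60L each hold 2, and IFI44L holds 2 where IFI44 holds 1. Among members that fell after si-E2F1, 14 of 16 promoters found held a core, against 10 of 18 among members without a call. After si-E2F3 the same counts were 13 of 17 and 12 of 19. A match of letters is a description of the window and not a measured binding site.

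HK1 cells given the Control siRNA already expressed most of these effectors. Of the 48 members, 7 averaged 100 FPKM or more in Control, 26 were between 10 and 100, 11 between 1 and 10, and 4 below 1. The most abundant was IFITM3 at 938 ± 25.8 FPKM, followed by BST2 at 342 ± 3.05 and ISG15 at 320 ± 27.7 (SD, n = 3 each), and their neighbours in that order, BST2 and ISG15, overlapped between single libraries. MX1, a gene that interferon induces strongly in many cells, was at 1.16 ± 0.405 FPKM after si-E2F1, 1.83 ± 0.3 after si-E2F3 and 1.23 ± 0.297 in Control. The chemokine genes CXCL10 and CXCL11 stayed at or below 0.22 FPKM in every library, and RTP4 likewise. FPKM are scaled to transcript length, so these levels give a rough order between genes. The values of closely related copies, such as the IFITM genes, and of genes that overlap others are less certain. The data are bulk, so a lower level in every cell and fewer cells with the transcript cannot be told apart.

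**Figure D1:**
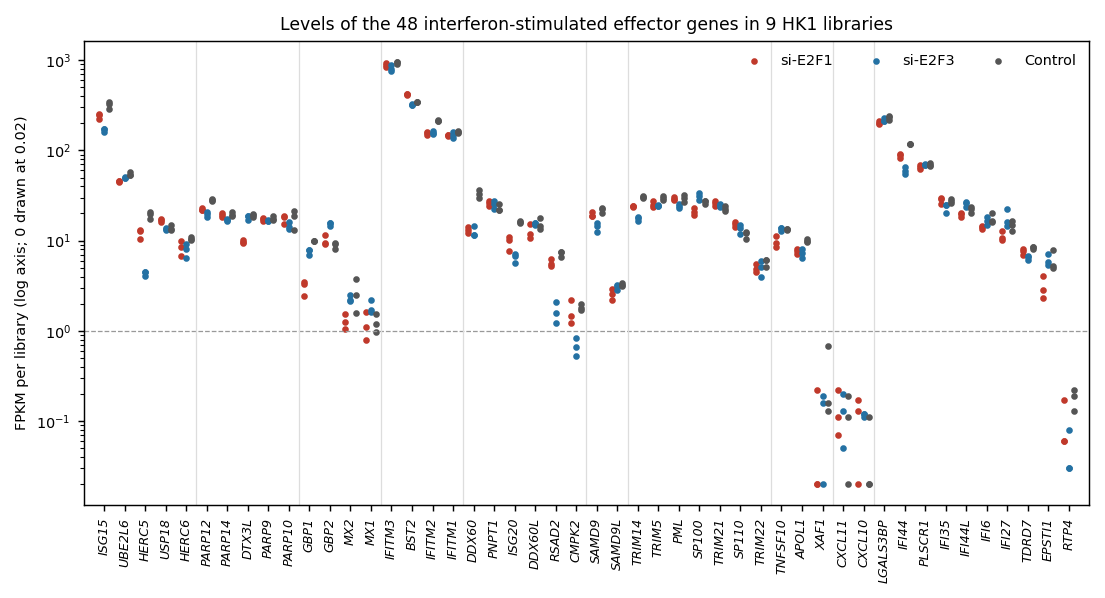
FPKM of each of the 48 members in each of the 9 libraries (points, log axis, values of 0 drawn at 0.02), with si-E2F1, si-E2F3 and Control from left to right at each gene and genes grouped by role. The dashed line marks 1 FPKM. IFITM3 lies highest in all 3 groups, and CXCL10, CXCL11, RTP4 and XAF1 lie below the line throughout.

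After si-E2F1, more effectors fell than rose relative to Control. Of the 44 tested, 19 fell (43.2%), 3 rose (6.82%) and 22 did not pass the test, against 17.3% lower and 20.5% higher (37.8% in either direction) over all 13777 genes tested (limma, adjusted p under 0.05 over all genes). In 24 of the 44 members every si-E2F1 library lay below every Control library, and in 3 of the 44 above. Of all 13777 genes tested, 3110 (22.6%) lay below and 3823 (27.7%) above. The median log2 change of the members was -0.24, beside 0.03 for all genes. GBP1, a guanylate-binding GTPase, fell most, followed by the helicase-like DDX60, the ubiquitin ligase DTX3L, EPSTI1, the exonuclease ISG20 and the ISG15 ligase HERC5. SP110, BST2 and USP18 rose. Most changes were modest: 7 of the 22 calls had a log2 change of at least 0.5 in size. Of the 19 falls, 15 kept their call under each of 17 other settings or left-out libraries under which they were tested, as did the rises of BST2 and USP18.

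The other calls of that comparison were lost under some settings, in several cases at an unchanged log2 change. MX2 (log2 -0.62) lost its call without Control replicate 1 (-0.40) or replicate 3 (-0.62), or without si-E2F1 replicate 1 (-0.61) or replicate 3 (-0.55), and also with no filter (-0.62) or with only the 6 libraries compared (-0.62). IFI6 (-0.31) lost it without Control replicate 1 (-0.21) or si-E2F1 replicate 1 (-0.31) or replicate 2 (-0.28), and with no filter (-0.31). TRIM5 (-0.23) and SP110 (0.34) lost it without Control replicate 1 (-0.20 and 0.28) or si-E2F1 replicate 3 (-0.19 and 0.31), and LGALS3BP (-0.19) without Control replicate 3 (-0.16).

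After si-E2F3, more effectors again fell than rose relative to Control. Of the 44 tested, 20 fell (45.5%), 1 rose (2.27%) and 23 did not pass, against 16.4% lower and 21.1% higher (37.6% in either direction) over all genes. The si-E2F3 libraries lay entirely below Control in 22 of the 44 members and entirely above in 4 of the 44. Of all 13777 genes tested, 2891 (21.0%) lay below and 3935 (28.6%) above. The median log2 change was -0.16, beside 0.04 for all genes. HERC5 fell most, followed by the radical enzyme RSAD2 (viperin), DDX60, ISG20, IFI44 and ISG15, and 11 of the 21 calls reached a log2 change of 0.5 in size. GBP2 rose. Of the 20 falls, 15 kept their call under each of the 17 settings under which they were tested, as did the rise of GBP2. Both knockdowns were set against the same 3 Control libraries, so their results are not independent of each other.

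The remaining 5 falls after si-E2F3, at log2 -0.35 to -0.09, were lost under some settings, in several cases at an unchanged log2 change. IFITM3 (log2 -0.21) lost its call without Control replicate 1 (-0.19) or replicate 3 (-0.20), or without si-E2F3 replicate 1 (-0.16) or replicate 3 (-0.19), and with no filter (-0.21). PARP14 (-0.19) lost it without Control replicate 1 (-0.21) or replicate 2 (-0.15), or si-E2F3 replicate 1 (-0.17) or replicate 2 (-0.19). GBP1 (-0.35) lost it without Control replicate 1 (-0.35), replicate 2 (-0.36) or replicate 3 (-0.36), or si-E2F3 replicate 2 (-0.30), and with no filter (-0.35). UBE2L6 (-0.14) lost it without Control replicate 2 (-0.11) or si-E2F3 replicate 2 (-0.14) or replicate 3 (-0.13). BST2 (-0.09) lost it under 14 of the 17 settings.

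The direct comparison asked whether the knockdowns differ from each other. Between si-E2F3 and si-E2F1, 14 of the 44 members were lower after si-E2F3 (31.8%), 9 were higher (20.5%) and 21 did not pass, against 22.0% lower and 23.5% higher (45.5% in either direction) over all genes. The si-E2F3 libraries lay entirely below those of si-E2F1 in 15 of the 44 members and entirely above in 12 of the 44. Of all 13777 genes tested, 3563 (25.9%) lay below and 3843 (27.9%) above. The split depended on scaling, as upper-quartile scaling gave 12 lower and 13 higher. All 13777 genes tested shifted the same way, from 3037 lower and 3237 higher to 2555 lower and 3719 higher. RSAD2, HERC5, CMPK2, IFI44, ISG15 and ISG20 were the furthest below si-E2F1, and GBP1, EPSTI1, DTX3L and IFI27 the furthest above it. The share of members called higher was near that of all genes.

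In the direct comparison 11 of the 14 lower calls and 8 of the 9 higher calls held under each of the 17 settings under which they were tested. PARP14 (log2 -0.17) lost its call without Control replicate 1 (-0.17) or replicate 3 (-0.17), and without any 1 of the si-E2F1 and si-E2F3 libraries except si-E2F1 replicate 2 (-0.13 to -0.19), as well as with no filter (-0.17), only the 6 libraries compared (-0.17) or upper-quartile scaling (-0.12). UBE2L6 (0.13) lost it without si-E2F1 replicate 1 (0.13) or replicate 3 (0.12) and without any 1 of the si-E2F3 libraries (0.12 to 0.14), and without the trend (0.13). IFI35 (-0.26) lost it without si-E2F1 replicate 1 (-0.23) or replicate 2 (-0.23) or si-E2F3 replicate 3 (-0.18), and with no filter (-0.26). PARP12 (-0.18) lost it without si-E2F1 replicate 2 (-0.16) or si-E2F3 replicate 2 (-0.14) or replicate 3 (-0.18), and with upper-quartile scaling (-0.14).

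Other members gained a call in the direct comparison under some settings. MX2 (0.52) was called without Control replicate 1 (0.52) or replicate 2 (0.52), with only the 6 libraries compared (0.52), with an added constant of 0.1 (0.79) and with upper-quartile scaling (0.55). TDRD7 (-0.19) was called without si-E2F1 replicate 2 (-0.24), with RLE scaling (-0.21), with an added constant of 0.1 (-0.22) and without the trend (-0.19). IFI6 (0.22) was called without si-E2F3 replicate 3 (0.29) and with upper-quartile scaling (0.27), which also called LGALS3BP (0.14) and PLSCR1 (0.14). DDX60L (0.28) was called without si-E2F1 replicate 2 (0.42) and IFITM3 (-0.12) without si-E2F3 replicate 2 (-0.18).

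**Figure D2:**
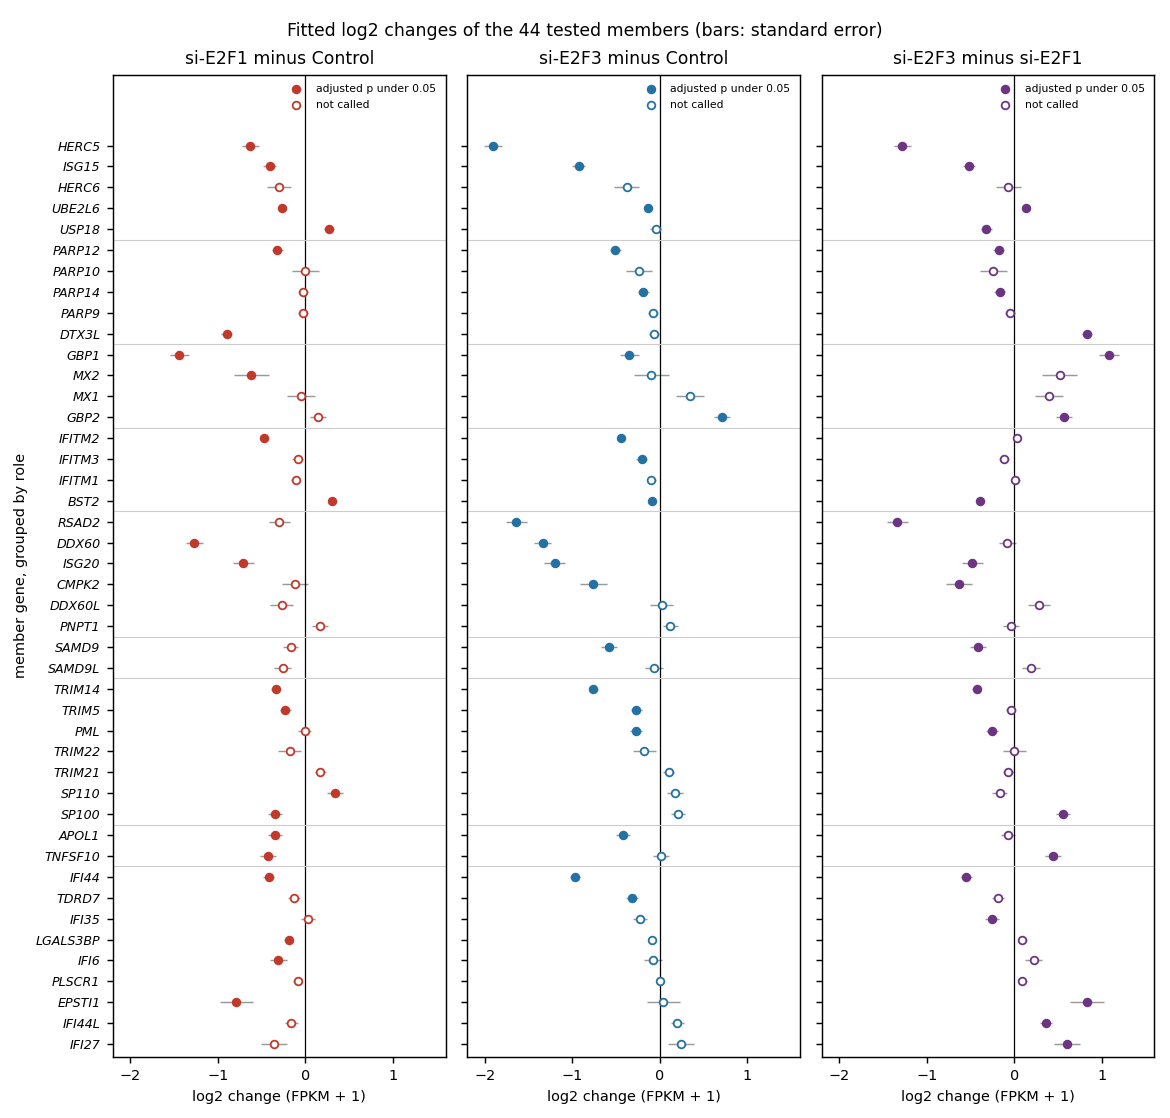
Fitted log2 changes on the log2(FPKM + 1) scale for the 44 tested members in 3 comparisons (si-E2F1 minus Control, si-E2F3 minus Control, si-E2F3 minus si-E2F1), with standard errors as bars. Filled points passed the test. HERC5 and RSAD2 lie furthest left after si-E2F3 and GBP1 and DDX60 after si-E2F1, while DTX3L and GBP1 lie to the right in the direct comparison.

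The ISG15 system attaches the ubiquitin-like protein ISG15 to other proteins. UBE2L6 is its conjugating enzyme, HERC5 the main human ligase, and USP18 removes ISG15 and damps receptor signalling. ISG15 was at 250.22, 246.4 and 225.1 FPKM after si-E2F1, 159.95, 171.08 and 170.96 after si-E2F3 and 341.77, 288.52 and 328.45 in Control. The 3 groups did not overlap, with si-E2F3 lowest. ISG15 fell by 0.41 after si-E2F1 (log2, SE 0.07, adjusted p = 9.60e-04) and by 0.93 after si-E2F3 (SE 0.07, adjusted p = 5.85e-06), and it was lower after si-E2F3 than after si-E2F1 (log2 -0.52, adjusted p = 1.64e-04).

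HERC5 was at 13.26, 10.46 and 12.73 FPKM after si-E2F1, 4.53, 4.09 and 4.54 after si-E2F3 and 20.53, 19.79 and 17.39 in Control. Again no library of one group overlapped another. Mean FPKM was 1.58-fold lower than in Control after si-E2F1 (log2 -0.63, SE 0.10, adjusted p = 7.12e-04) and 4.39-fold lower after si-E2F3 (log2 -1.91, adjusted p = 7.57e-07). USP18 went the other way after si-E2F1, at 17.56, 16.11 and 17.0 FPKM, against 14.98, 13.49 and 13.11 in Control (log2 0.27, SE 0.06, adjusted p = 0.00824). After si-E2F3 it was at 13.11, 13.31 and 13.65 FPKM, within the Control range (log2 -0.05, adjusted p = 0.592). UBE2L6 averaged 45.5 ± 0.82 FPKM after si-E2F1, 49.9 ± 0.613 after si-E2F3 and 55.2 ± 2.23 in Control. HERC6, a relative of HERC5 that acts as the ISG15 ligase in mouse, did not pass in either comparison with Control (log2 -0.30 and -0.38). After si-E2F3 its value passed without si-E2F1 replicate 1 (-0.38) or replicate 3 (-0.38) or si-E2F3 replicate 1 (-0.48), with RLE scaling (-0.41) and with only the 6 libraries compared (-0.38).

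Of the 5 ADP-ribosylation genes, 2 fell after each siRNA (40% called, against 37.8% and 37.6% of all genes called in either direction after si-E2F1 and si-E2F3). None rose, and 17.3% and 16.4% of all genes were called lower. DTX3L, a ubiquitin ligase that works as a complex with the macrodomain protein PARP9, was at 9.39, 9.72 and 10.14 FPKM after si-E2F1, 18.53, 18.54 and 17.1 after si-E2F3 and 19.69, 19.3 and 18.15 in Control. The si-E2F1 libraries stood well below both other groups, which overlapped. DTX3L fell 1.95-fold after si-E2F1 (log2 -0.90, SE 0.06, adjusted p = 3.66e-06), was not called after si-E2F3 (log2 -0.07, adjusted p = 0.368) and differed between the knockdowns (log2 0.83, adjusted p = 4.07e-06). PARP9 averaged 17.4 ± 0.683 FPKM after si-E2F1, 16.7 ± 0.319 after si-E2F3 and 17.8 ± 0.996 in Control and was not called in any comparison. PARP12, a mono-ADP-ribosyltransferase, fell after both siRNAs (log2 -0.32 and -0.51), and PARP14, another, fell after si-E2F3 within the limits given above. PARP10 was not called (log2 -0.00 after si-E2F1 and -0.24 after si-E2F3), though its si-E2F3 value passed without Control replicate 2 (log2 -0.43).

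The large GTPases split. GBP1, which coats vacuoles that hold microbes, was at 3.49, 2.41 and 3.28 FPKM after si-E2F1, 7.8, 6.95 and 7.87 after si-E2F3 and 9.97, 9.87 and 9.87 in Control. Every si-E2F1 library lay below every si-E2F3 library, and those below every Control library. GBP1 fell 3.24-fold after si-E2F1 (log2 -1.44, SE 0.11, adjusted p = 6.41e-06), and the direct difference was log2 1.08 (adjusted p = 2.87e-05). GBP2, a relative of like function, was at 9.29, 9.11 and 11.55 FPKM after si-E2F1, 14.45, 15.62 and 15.63 after si-E2F3 and 9.26, 9.47 and 8.12 in Control. It rose 1.7-fold after si-E2F3 (log2 0.71, SE 0.09, adjusted p = 3.11e-04), while the si-E2F1 libraries overlapped Control (log2 0.14, adjusted p = 0.284).

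MX1, a dynamin-like GTPase known for blocking influenza viruses, was at 1.6, 1.09 and 0.8 FPKM after si-E2F1, 2.17, 1.72 and 1.6 after si-E2F3 and 1.19, 0.96 and 1.55 in Control. The si-E2F3 libraries lay just above those of Control, but the difference did not pass (log2 0.34, adjusted p = 0.128). Its value after si-E2F1 was near 0 (log2 -0.05) and turned positive without Control replicate 3 (0.05) or si-E2F1 replicate 3 (0.07). Its direct difference (0.40, adjusted p = 0.0742) passed without si-E2F1 replicate 1 (0.54). MX2, its relative that restricts HIV, averaged 1.29 ± 0.241 FPKM after si-E2F1, 2.28 ± 0.21 after si-E2F3 and 2.62 ± 1.11 in Control, with a wide spread in Control.

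Among the membrane barriers, IFITM1, IFITM2 and IFITM3 hinder fusion of enveloped viruses and BST2 (tetherin) holds budding virions at the cell surface. BST2 was at 425.12, 425.62 and 413.33 FPKM after si-E2F1, 315.36, 321.57 and 327.69 after si-E2F3 and 345.21, 339.74 and 340.12 in Control. It was above every Control library after si-E2F1 and below every one after si-E2F3. The rise after si-E2F1 passed (log2 0.30, SE 0.03, adjusted p = 4.54e-05), and so did the direct difference (log2 -0.39, adjusted p = 6.48e-06). The fall after si-E2F3 (log2 -0.09, adjusted p = 0.0458) did not outlast most other settings. IFITM2 averaged 154 ± 5.99 FPKM after si-E2F1, 157 ± 4.81 after si-E2F3 and 214 ± 3.33 in Control (log2 -0.47 and -0.44, adjusted p = 1.50e-05 and 2.65e-05). IFITM1 (log2 -0.11 and -0.10) did not pass in either comparison. It passed after si-E2F1 without si-E2F3 replicate 2 or with only the 6 libraries compared (-0.11 each) and after si-E2F3 without the same library (-0.16). The IFITM genes are closely related copies, how reads were divided among them is not stated, and the annotation of IFITM2 spans all 1767 bp of IFITM1, so their single values are uncertain.

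Of the 6 genes that act on RNA or nucleotides, 2 fell after si-E2F1 and 4 after si-E2F3 (33.3% and 66.7%, against 17.3% and 16.4% of all genes called lower), with a median log2 change of -0.98 after si-E2F3. None rose, and 37.8% and 37.6% of all genes were called in either direction. DDX60, a helicase-like protein linked to RNA sensing, was at 13.02, 12.13 and 14.19 FPKM after si-E2F1, 11.42, 11.5 and 14.38 after si-E2F3 and 33.18, 29.47 and 36.5 in Control. The knockdown groups overlapped each other and both lay far below Control. DDX60 fell 2.52-fold after si-E2F1 (log2 -1.27, SE 0.10, adjusted p = 1.26e-05) and 2.66-fold after si-E2F3 (log2 -1.34, SE 0.10, adjusted p = 1.02e-05). The direct difference was log2 -0.08 with an SE of 0.10 (adjusted p = 0.588). ISG20, an RNA exonuclease, was at 10.23, 7.61 and 10.83 FPKM after si-E2F1, 6.8, 5.6 and 7.11 after si-E2F3 and 15.7, 16.56 and 16.17 in Control. Its groups did not overlap, with log2 changes of -0.71 (SE 0.12, adjusted p = 0.00128) and -1.20 (SE 0.12, adjusted p = 5.49e-05).

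RSAD2 makes a nucleotide analogue that stops viral RNA chains, from CTP supplied in part by its neighbour, the mitochondrial kinase CMPK2. RSAD2 was at 6.21, 5.19 and 5.44 FPKM after si-E2F1, 2.08, 1.58 and 1.23 after si-E2F3 and 7.5, 7.41 and 6.58 in Control. CMPK2 was at 1.23, 2.17 and 1.46 FPKM after si-E2F1, 0.53, 0.66 and 0.83 after si-E2F3 and 1.97, 1.69 and 1.8 in Control. Both were lowest in the si-E2F3 libraries, below every library of the other groups. After si-E2F3, RSAD2 fell 4.39-fold (log2 -1.64, SE 0.12, adjusted p = 8.30e-06) and CMPK2 2.7-fold (log2 -0.76, SE 0.15, adjusted p = 0.0031). After si-E2F1 neither passed (RSAD2 log2 -0.30, adjusted p = 0.0801; CMPK2 log2 -0.12, adjusted p = 0.558). RSAD2 did pass there without si-E2F3 replicate 1 or replicate 3 or with only the 6 libraries compared (log2 -0.30 each). The direct differences were log2 -1.34 and -0.63 (adjusted p = 2.02e-05 and 0.0062). PNPT1, a mitochondrial RNA phosphorylase, was not called (log2 0.17 and 0.12).

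**Figure D3:**
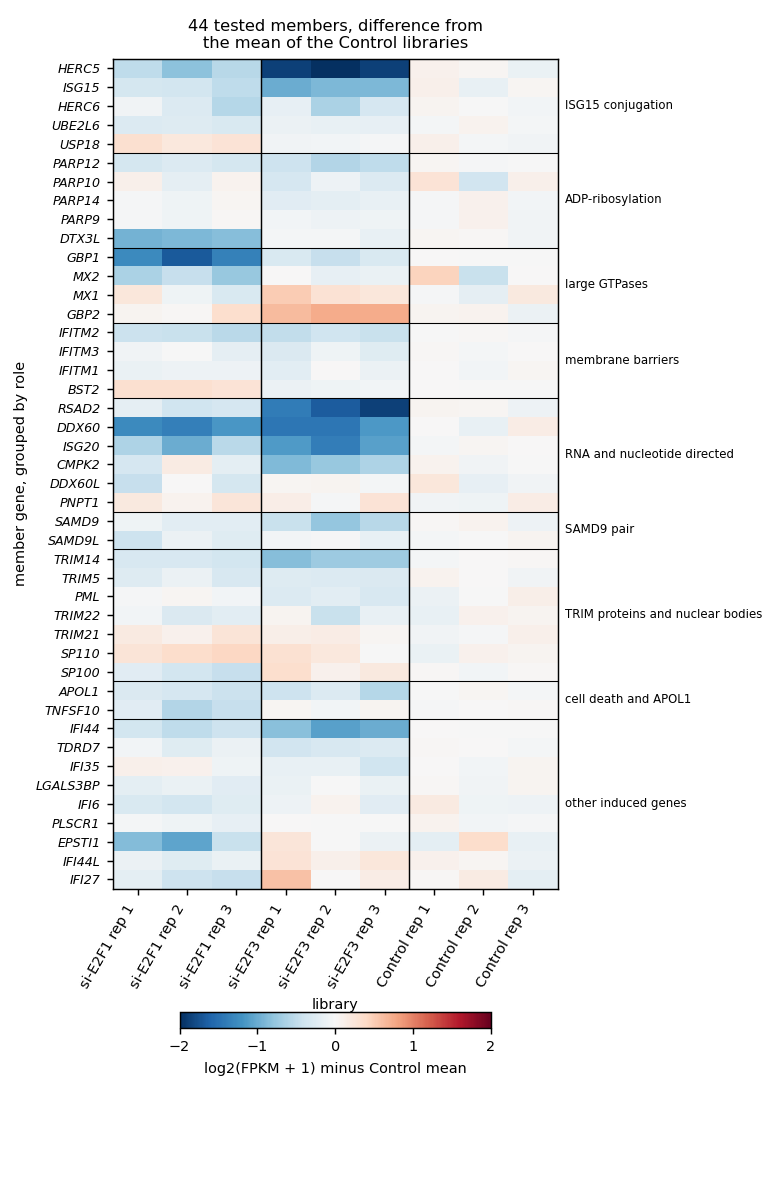
Difference of log2(FPKM + 1) from the mean of the 3 Control libraries, for the 44 tested members (down the page, by role) in each library (si-E2F1, si-E2F3 and Control from left to right). Blue is lower and red higher. HERC5, RSAD2, DDX60 and ISG20 are blue in all 3 si-E2F3 libraries, GBP1, DTX3L and DDX60 in all 3 si-E2F1 libraries, and BST2 is light red after si-E2F1.

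TRIM proteins and nuclear body components mostly showed smaller changes. Of 7 members, 3 fell and 1 rose after si-E2F1, and 3 fell after si-E2F3 (57.1% and 42.9% called, against 37.8% and 37.6% of all genes). Over all genes, 17.3% and 16.4% were called lower. TRIM14, an adaptor of antiviral signalling, averaged 23.8 ± 0.401 FPKM after si-E2F1, 17.5 ± 0.909 after si-E2F3 and 30.3 ± 0.854 in Control (log2 -0.34 and -0.76, adjusted p = 7.53e-04 and 4.88e-06). TRIM5, which binds retroviral capsids, fell after si-E2F1 (log2 -0.23), within the limits given above, and after si-E2F3 (log2 -0.27). PML, the scaffold of PML nuclear bodies, fell after si-E2F3 (log2 -0.27) but not after si-E2F1 (log2 -0.01, adjusted p = 0.922). SP100, a partner of PML in these bodies, was at 22.81, 20.61 and 19.06 FPKM after si-E2F1, 34.07, 28.5 and 30.9 after si-E2F3 and 27.29, 25.73 and 27.28 in Control. It lay below every Control library after si-E2F1 (log2 -0.35, SE 0.08, adjusted p = 0.0062) and above every one after si-E2F3 (log2 0.21, adjusted p = 0.0632). Its si-E2F3 value passed with upper-quartile scaling (0.22), without si-E2F1 replicate 1 (0.21) and without si-E2F3 replicate 2 (0.27). SP110, a related nuclear body protein, was at 14.22, 15.25 and 16.01 FPKM after si-E2F1, 14.73, 13.78 and 11.7 after si-E2F3 and 10.55, 12.47 and 12.21 in Control. Its si-E2F1 libraries lay above Control (log2 0.34, adjusted p = 0.0161), a call lost without Control replicate 1 (0.28) or si-E2F1 replicate 3 (0.31), and its si-E2F3 libraries overlapped it. TRIM21, the antibody receptor of the cytosol, and TRIM22 were not called, though TRIM21 was after si-E2F1 without Control replicate 3 (log2 0.22) or si-E2F1 replicate 2 (0.22).

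SAMD9, which curbs translation in poxvirus infection, fell after si-E2F3, where it averaged 14.3 ± 1.73 FPKM, against 21.8 ± 1.39 in Control (log2 -0.58, SE 0.09, adjusted p = 6.22e-04). It did not pass after si-E2F1 (log2 -0.17). SAMD9L was not called in either (log2 -0.26 and -0.07), but passed after si-E2F1 without si-E2F1 replicate 2 (-0.33), with RLE scaling (-0.28) or upper-quartile scaling (-0.28), and without the trend (-0.26). TNFSF10, the death ligand TRAIL, fell after si-E2F1 to 9.77 ± 1.43 FPKM, against 13.4 ± 0.195 in Control (log2 -0.43, adjusted p = 0.00419). After si-E2F3 it averaged 13.5 ± 0.621 FPKM, and the direct difference passed (log2 0.44, adjusted p = 0.0029). APOL1, a trypanosome-killing apolipoprotein, fell after both (log2 -0.35 and -0.42).

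Of the other induced genes, IFI44 had the largest change after si-E2F3. It was at 91.14, 82.83 and 88.35 FPKM after si-E2F1, 65.14, 54.63 and 58.87 after si-E2F3 and 118.22, 117.5 and 117.02 in Control. The groups did not overlap, and IFI44 fell by 0.42 after si-E2F1 (log2, SE 0.06, adjusted p = 5.00e-04) and by 0.97 after si-E2F3 (SE 0.06, adjusted p = 3.17e-06). EPSTI1, a gene first described in breast epithelium beside stroma, was at 2.81, 2.32 and 4.09 FPKM after si-E2F1, 7.17, 5.86 and 5.42 after si-E2F3 and 5.03, 7.81 and 5.27 in Control. Only its si-E2F1 libraries stood apart from Control (log2 -0.79, SE 0.19, adjusted p = 0.00806), and the knockdowns differed (log2 0.83, adjusted p = 0.00531). IFI27 was at 12.66, 10.66 and 10.27 FPKM after si-E2F1, 22.37, 14.58 and 16.2 after si-E2F3 and 14.84, 16.45 and 12.62 in Control. Neither knockdown group was separate from Control, and only the direct difference passed (log2 0.60, SE 0.15, adjusted p = 0.00896). Against Control, IFI27 passed after si-E2F1 without si-E2F3 replicate 1 or with only the 6 libraries compared (log2 -0.36 each). TDRD7 fell after si-E2F3 (log2 -0.32), and IFI35 and the phospholipid scramblase PLSCR1 were not called against Control. IFI35 passed after si-E2F3 without si-E2F1 replicate 3 (log2 -0.23), si-E2F3 replicate 1 (-0.27) or si-E2F3 replicate 2 (-0.28), with RLE scaling (-0.27) and with a filter of 5 FPKM (-0.23). LGALS3BP, a secreted glycoprotein, passed after si-E2F3 with RLE scaling (log2 -0.13) and not otherwise (-0.09).

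Many effectors arose by gene duplication and lie side by side. In GENCODE 29 (GRCh38), 13 pairs of members lie within 100 kb of each other. These include neighbours that are not duplicates, such as RSAD2 and CMPK2. In some pairs the genes had different calls. How common this is among other pairs of genes was not determined. DTX3L (3:122564238-122575203) and PARP9 (3:122527924-122564577) are divergent genes whose annotations overlap by 340 bp, and DTX3L but not PARP9 was called after si-E2F1. DDX60 and DDX60L lie 37.9 kb apart on chromosome 4. DDX60L averaged 12.6 ± 2.39 FPKM after si-E2F1, 15.4 ± 0.561 after si-E2F3 and 15.3 ± 2.34 in Control and was not called (log2 -0.27 and 0.02), though its si-E2F1 value passed without si-E2F1 replicate 2 (-0.40). IFI44 and IFI44L lie 3.6 kb apart on chromosome 1. IFI44L averaged 19.5 ± 0.915 FPKM after si-E2F1, 25.3 ± 1.6 after si-E2F3 and 22.0 ± 1.71 in Control (log2 -0.16 and 0.20, adjusted p = 0.104 and 0.0542). The first passed without Control replicate 3 (-0.22), and the second without Control replicate 1 (0.24) or si-E2F3 replicate 2 (0.25), with upper-quartile scaling (0.21) and with a filter of 5 FPKM (0.20). RSAD2 and CMPK2, divergent genes that overlap by 830 bp, were both called after si-E2F3 and in the direct comparison. Differences between the genes of a pair were not tested.

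**Figure D4:**
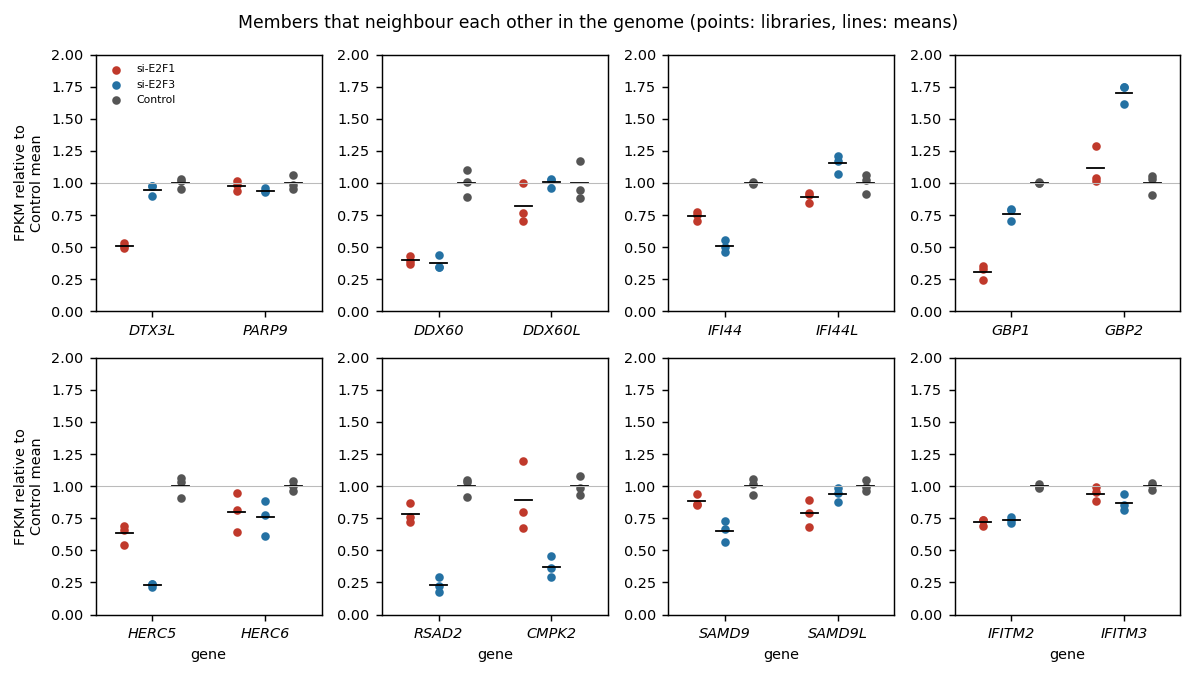
FPKM relative to the Control mean of the same gene, in each library (points, with group means as lines), for 8 neighbouring pairs of members; si-E2F1, si-E2F3 and Control stand from left to right at each gene. DTX3L is low after si-E2F1 beside a PARP9 near 1, DDX60 is low after both siRNAs beside DDX60L, GBP1 is low where GBP2 is level or high, and RSAD2 and CMPK2 are both low after si-E2F3.

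Some members overlap other expressed genes, and the labels do not say whether counting used the strand, so reads from such overlaps cannot be told apart. TRIM14 overlaps NANS on the opposite strand by 13801 bp (72.8 FPKM on average), DDX60L overlaps PALLD by 40721 bp (41.3 FPKM), PARP10 overlaps GRINA (83.5 FPKM), and TRIM5 and TRIM22 overlap each other by 47401 bp. The extents are of whole genes, introns included.

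Elsewhere in the pathway, of the 8 IFIT and OAS genes 5 fell after si-E2F1 and 7 after si-E2F3, and none rose (62.5% and 87.5% called, against 37.8% and 37.6% of all genes). IFIT3 averaged 42.7 ± 2.49 FPKM after si-E2F1, 19.2 ± 2.29 after si-E2F3 and 77.7 ± 2.04 in Control. OASL averaged 66.9 ± 1.59 FPKM after si-E2F1, 20.7 ± 1.55 after si-E2F3 and 110 ± 4.8 in Control, and IFIT2 was at 39.2 ± 2.52, 10.5 ± 1.12 and 50.9 ± 2.17 FPKM in the same order. Of 17 tested receptor and signalling genes, 6 fell and 1 rose after each siRNA (41.2% called, near the 37.8% and 37.6% of all genes). STAT2, a subunit of ISGF3, averaged 11.1 ± 0.477 FPKM after si-E2F1, 17.4 ± 2.04 after si-E2F3 and 25.4 ± 0.854 in Control (log2 -1.13 and -0.53, adjusted p = 4.70e-06 and 6.39e-04). IFNAR2, a chain of the type I interferon receptor, fell after si-E2F1 (log2 -0.71), and IFNGR1 (log2 -0.96) and IRF1 (log2 -0.92) fell after si-E2F3. Of 9 tested sensors, 3 fell and 1 rose after si-E2F1, and 3 fell after si-E2F3 (44.4% and 33.3% called, near the same shares of all genes). For each of these lists, the share of all genes called lower was 17.3% after si-E2F1 and 16.4% after si-E2F3. DDX58 (RIG-I), which detects double-stranded RNA ends, was lowest after si-E2F3 (log2 -0.76 and -1.47), TLR3 fell after si-E2F1 (log2 -0.68), and DHX58, a regulator of RIG-I, fell after si-E2F3 (log2 -0.75).

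Of 8 interferon genes, IFNE was the only one tested. It averaged 1.0 ± 0.262 FPKM after si-E2F1, 2.07 ± 0.622 after si-E2F3 and 1.15 ± 0.0173 in Control, and it was higher after si-E2F3 (log2 0.49, adjusted p = 0.0346). The 8 interferon genes summed to 1.23 to 1.87 FPKM after si-E2F1, 1.83 to 2.98 after si-E2F3 and 1.34 to 1.43 in Control. IFNB1 and IFNA1 were listed at 0 in all Control libraries.

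The targeted transcripts were low in their own groups. E2F1 was at 7.17, 7.95 and 7.33 FPKM after si-E2F1, against 19.85, 19.53 and 20.2 in Control, and E2F3 at 12.61, 10.52 and 11.02 FPKM after si-E2F3, against 24.74, 27.17 and 24.42 in Control. Absolute sequencing depth is unknown. Relative depth, from the step size of low FPKM in 2640 single-exon genes, was 0.9 to 1.15 times that of Control replicate 1 after si-E2F1, 0.97 to 1.0 times after si-E2F3 and 0.87 to 1.21 times in Control. The 8 epithelial markers were all expressed and also moved. Their sum was 1970 to 2085 FPKM after si-E2F1, 1867 to 1973 after si-E2F3 and 2770 to 2800 in Control. Of the 8, 7 were called lower after si-E2F1 and 6 after si-E2F3 (87.5% and 75%). Over all genes, 17.3% and 16.4% were called lower. The part of the epithelial markers in the results was not tested. Of 6 leukocyte markers CD68 alone was tested, at 16.79 to 18.75 FPKM after si-E2F1, 16.8 to 19.72 after si-E2F3 and 17.14 to 19.55 in Control. The 3 plasmacytoid dendritic cell markers summed to at most 0.24 FPKM after si-E2F1, 0.27 after si-E2F3 and 0.61 in Control, with CLEC4C listed at 0 in all 9 libraries. The 3 endothelial markers summed to at most 1.22 FPKM after si-E2F1, 0.67 after si-E2F3 and 1.87 in Control. Of the 4 fibroblast markers COL1A1 alone was tested, and it rose after si-E2F1 (log2 0.45).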

How the data were processed

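Libraries were grouped by their titles. The submitters' processing notes list GRCh38 and the tools DESeq, HTSeq, HISAT2, TopHat and Trimmomatic, without version or role. The authors deposited FPKM per gene, 1 file a library, as the headers show. Of 59107 gene entries in a file, 726 assembled loci were left out, as were 12 further lines of text. Names and coordinates are from GENCODE 29 on GRCh38 (56933 identifiers matched exactly, 1328 after the version was dropped, 120 not).

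Genes that reached 1 FPKM in 3 or more libraries (of 9) were fitted as log2(FPKM + 1) in 1 limma model (limma 3.58.1, R 4.3.3, with trend) with a mean per group. Tests were two-sided, adjusted by Benjamini-Hochberg over 13777 genes, threshold 0.05. The scale understates changes of low genes. Fold changes are ratios of mean FPKM. The fit was tested on simulated data. Members, lists and motifs were chosen with earlier results of these data known. Values in every library are given for the 6 largest falls and 4 largest rises called per comparison, for opposite calls, and for ISG15 and MX1; SP100 and some smaller changes were named after their values were seen. The pathway genes named are the 2 with the largest called change per list and comparison with Control; IFNB1 and IFNA1 are named as listed at 0. Tables and figures used Python 3.11.15 with pandas 2.3.3 and matplotlib 3.10.9. Other settings tried were RLE or upper-quartile scaling, an added constant of 0.1, no filter or 5 FPKM, only the 6 libraries compared, a replicate block, no trend, leaving out each library, and stricter thresholds.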

Additional observations from a re-analysis of the deposited data

Results flagged for a closer look

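BST2 and SP100 lay on opposite sides of every Control library in the 2 knockdowns, and their direct differences passed the test. How many of all genes tested do the same was not determined, so the 2 genes cannot be called unusual. Over all genes, 22.6% lay entirely below Control and 27.7% entirely above after si-E2F1. After si-E2F3 these shares were 21.0% and 28.6%, and 45.5% of all genes were called in the direct comparison. BST2 was higher after si-E2F1 and lower after si-E2F3, with a difference between si-E2F3 and si-E2F1 of log2 -0.39 (SE 0.03, limma adjusted p = 6.48e-06). SP100 was lower after si-E2F1 and higher after si-E2F3, with a difference of log2 0.56 (SE 0.08, limma adjusted p = 3.36e-04). For both genes 1 of the comparisons with Control was weak: the fall of BST2 after si-E2F3 was log2 -0.09, and the value of SP100 after si-E2F3 (log2 0.21) did not pass.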

How the results depend on the processing

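The number of members called stayed within 1.5 times under every other fit tried, apart from a least log2 change. Direction was followed for 69 single-gene changes: the calls of the main fit and all changes of ISG15 and MX1. Other changes that were not called, some of them near 0, were not followed. Of the 69, that of MX1 after si-E2F1 alone turned its direction under a setting tried (log2 0.05 without Control replicate 3 and 0.07 without si-E2F1 replicate 3, against -0.05). A least log2 change of 0.5 left 7 calls after si-E2F1, 11 after si-E2F3 and 11 in the direct comparison. Leaving out each library gave 18 to 24 calls after si-E2F1, 18 to 22 after si-E2F3 and 20 to 24 in the direct comparison. The median log2 change of the members ranged from -0.27 to -0.18, from -0.16 to -0.13 and from -0.072 to -0.029 in the same order. After si-E2F3 it was -0.20 with RLE scaling and -0.19 with the filter of 5 FPKM, and in the direct comparison -0.074 with RLE and -0.016 with upper-quartile scaling. The causes were not tested.

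In their deviations from group means, same-numbered libraries correlated at 0.029 to 0.112 between si-E2F1 and si-E2F3. Between either knockdown and Control the range was -0.106 to -0.005. Differently numbered libraries correlated at -0.077 to 0.069. Correlations this small cannot settle whether the numbers pair the libraries. With the replicate block, 23, 21 and 22 members were called, against 22, 21 and 23 without it: RSAD2 after si-E2F1 and HERC6 and SP100 after si-E2F3 were gained, and BST2 and PARP14 after si-E2F3 and PARP14 in the direct comparison were lost. Absolute depth is unknown, so no limit of detection is given for the 4 members not tested.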
